A study of Mus musculus with 4 samples.

Results

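Enzymes that conjugate, hydrolyse, reduce or oxidise foreign chemicals were described across whole lungs of male mice of the inbred strain C57BL kept in clean air or exposed to mainstream cigarette smoke. Genes were taken by name. They comprised the glutathione transferases of the alpha, kappa, mu, omega, pi, theta and zeta classes, the microsomal glutathione transferases (Mgst), the UDP-glucuronosyltransferases (Ugt1 and Ugt2), the sulfotransferases (Sult), the epoxide hydrolases (Ephx), family 1 of the aldo-keto reductases (Akr1), the carbonyl reductases (Cbr) and the flavin-containing monooxygenases (Fmo). A gene was included if a feature of the array carried its symbol and no other, and pseudogene symbols were left out. This gave 77 of 30142 genes, all annotated as protein coding, from 78 features. No Ugt1 gene was among them (0 of 77), and 3 features that joined a symbol of these families with another symbol were not used.

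The mice entered exposure aged 10 weeks, with sessions of 1 h on 5 days of each week. The 4 groups were clean air or smoke over 2 weeks, in mice 12 weeks old at the end, and clean air or smoke over 4 weeks, in mice 14 weeks old at the end. Each group was 1 pool on 1 array, mixed from 5 mice, or from 4 mice after 4 weeks of smoke, so that the spread between animals cannot be seen and a difference between 2 pools has no replicate check. All values are log2 of the deposited signal unless stated otherwise, and folds assume that the linear values had been made with base 2. The sources used here do not give that base, and the highest deposited value, 845602, is above 65535, the top of a 16-bit scan. With base e all log2 signals and differences would be 0.693 times those printed, while directions and the limma calls would stay, and fewer genes would reach 1.5-fold, as given beside those counts. The lung's defining markers were present in all pools, with log2 signals of 18.85 to 18.97 for the surfactant gene Sftpc and 15.83 to 16.05 for Ager, a marker of alveolar type 1 cells.

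Detoxification is commonly described in phases. Phase I enzymes, the flavin-containing monooxygenases among them, add or expose a reactive group, and phase II enzymes join the product to glutathione, glucuronic acid or sulfate, which makes it soluble and ready for export. Cigarette smoke carries epoxide-forming hydrocarbons, aldehydes and ketones, which glutathione transferases, epoxide hydrolases, aldo-keto reductases and carbonyl reductases act on. Many of these genes are known targets of NRF2, the transcription factor of the electrophile response, which binds antioxidant response elements, and some are targets of the aryl hydrocarbon receptor (AHR).

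Of the 77 genes, 45 had a mean log2 signal above a floor set at the 40th percentile of all genes (5.82), and 32 lay at or below it. Signals of different features are not amounts of transcript, and a high mean signal served only to choose which genes to print. The genes above the floor covered 18 of 20 glutathione transferases of the classes alpha to zeta, all 3 microsomal ones, 4 of 4 epoxide hydrolases, 4 of 4 carbonyl reductases, 7 of 13 aldo-keto reductases and 5 of 6 flavin-containing monooxygenases. By contrast, 0 of 8 Ugt2 genes and 4 of 19 sulfotransferases were above it. The 32 lower genes had log2 signals of 3.65 to 5.70 in the 4 pools. Their smoke differences ran from -0.26 to 0.25 at 2 weeks and from -0.33 to 0.67 at 4 weeks. Of the Ugt2 genes, Ugt2b36, chosen by its mean signal, was at 4.80, 4.90, 4.79 and 4.94 in the 2-week control, 2-week smoke, 4-week control and 4-week smoke pools. The values of the 4 pools are always given in that order below. The control pools are also called the younger (2-week) and the older (4-week) control.

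One gene passed the test of smoke over both durations. Gstp3, a glutathione transferase of the pi class, rose, and the other 44 genes above the floor did not pass. Akr1b8, an aldo-keto reductase of aldehydes, and Gsto1, the omega class transferase with dehydroascorbate reductase activity, had the largest smoke effects after Gstp3 among the 45, without passing. Sult1d1, a sulfotransferase, was lower after 4 weeks of smoke. The 2 pi class genes and the 7 mu class genes were all higher in the older than in the younger control pool, which had no smoke. Of all genes, 52.1% were.

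Promoters of 5 genes are shown because their genes were the ones with a smoke difference of at least 1.5-fold (Gstp3, Akr1b8, Gsto1 and Sult1d1) or, for Gstp1, because it is the other pi class gene and lay higher with Gstp3 in the same 3 pools. The sequences are the 250 bases before the gene's start in RefSeq (GRCm38.p6), 5′ to 3′ on the gene's strand. They lie at chr19:4037913-4038162 (minus strand), chr19:4059448-4059697 (minus), chr6:34353896-34354145 (plus), chr19:47854723-47854972 (plus) and chr5:87569007-87569256 (minus). Capitals mark matches on either strand to the antioxidant response element core, searched as TGACNNNGC and TGAGNNNGC, and to GCGTG, the core of the site bound by the AHR.
Gstp1: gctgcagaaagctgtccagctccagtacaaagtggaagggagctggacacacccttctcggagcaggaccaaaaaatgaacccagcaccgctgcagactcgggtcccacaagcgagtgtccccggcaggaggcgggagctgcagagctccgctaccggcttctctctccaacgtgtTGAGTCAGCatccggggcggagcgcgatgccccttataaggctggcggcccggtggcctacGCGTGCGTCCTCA
Gstp3: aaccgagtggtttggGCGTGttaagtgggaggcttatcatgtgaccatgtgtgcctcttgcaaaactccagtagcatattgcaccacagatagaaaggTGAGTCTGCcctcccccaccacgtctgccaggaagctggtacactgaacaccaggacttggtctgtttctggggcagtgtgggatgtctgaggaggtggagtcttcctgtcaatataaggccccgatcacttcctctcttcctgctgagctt
Akr1b8: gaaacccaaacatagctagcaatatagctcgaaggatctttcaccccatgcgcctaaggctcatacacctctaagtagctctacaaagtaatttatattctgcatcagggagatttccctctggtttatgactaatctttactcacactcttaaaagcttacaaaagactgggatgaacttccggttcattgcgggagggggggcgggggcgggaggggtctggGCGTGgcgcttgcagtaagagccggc
Gsto1: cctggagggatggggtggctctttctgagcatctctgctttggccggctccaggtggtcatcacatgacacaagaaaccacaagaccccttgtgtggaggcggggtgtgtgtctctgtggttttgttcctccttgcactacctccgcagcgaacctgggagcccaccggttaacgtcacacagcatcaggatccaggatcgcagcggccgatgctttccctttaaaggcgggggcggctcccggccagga
Sult1d1: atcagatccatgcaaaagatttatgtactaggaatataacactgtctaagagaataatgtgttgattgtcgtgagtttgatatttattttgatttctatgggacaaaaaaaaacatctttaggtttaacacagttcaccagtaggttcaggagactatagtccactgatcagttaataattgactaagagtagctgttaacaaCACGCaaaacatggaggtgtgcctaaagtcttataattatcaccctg

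Both pi class promoters held TGAGNNNGC. In Gstp1 the match TGAGTCAGC began 74 bases before the start and contains TGAGTCA, the site of the AP-1 factors. A further match on the other strand covered the last 9 bases and shared its first base with the GCGTG match before it. In Gstp3 the match TGAGTCTGC began 152 bases before the start, and another match crosses the start itself. The 2 windows were 50.7% identical over 292 aligned columns, with gaps allowed. No other pair of promoters was aligned, so this share has no comparison, and whether the 2 are more alike than unrelated promoters was not tested. No TGACNNNGC was found in the windows of these 5 genes, and Gsto1 held none of the motifs. Each motif is common. Among 27018 genes with windows of 300 bases (250 before to 50 after a start), TGACNNNGC matched in 14.0%, TGAGNNNGC in 19.8%, TGAGTCA in 5.95% and GCGTG in 35.2%. Windows were found for 41 of the 45 genes above the floor, with TGACNNNGC in 5 (Akr1c19, Gsta3, Gstm5, Gstm7 and Mgst1), TGAGNNNGC in 7, TGAGTCA in 4 and GCGTG in 11. A match describes letters and is not a bound site, and the motif TGAGTCA was chosen after the Gstp1 sequence had been seen.

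The pi class conjugates small electrophiles with glutathione, and Gstp1 is its main form in mouse lung. The log2 signal of Gstp3 was 7.12, 8.25, 8.37 and 9.08. Both smoke pools were above the control of their age, but the 4-week control was above the 2-week smoke pool, so that the groups overlap. Gstp3 was 2.19-fold higher with smoke at 2 weeks and 1.63-fold at 4 weeks, and 2.39-fold higher in the older over the younger control. Over both durations it rose by 0.92 ± 0.131 (log2 effect and standard error, limma with 2 smoke and 2 control pools and a term for duration, Benjamini-Hochberg adjusted p = 0.0321). Of all 18084 genes above the floor, 1.15% rose and 0.315% fell in this fit, against 1 of 45 and 0 of 45 here. At an unadjusted p under 0.05, 6 of the 45 were higher and 4 lower, against 6.46% and 5.16% of all genes.

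The call of Gstp3 depended on the scaling and on the duration term. It was lost after median centring (0.91, adjusted p = 0.133), after cyclic loess (0.92, adjusted p = 0.0957) and without the duration term (0.92, adjusted p = 0.928). Fits that leave out 1 pool also lack the duration term. They therefore cannot show whether the call rests on any 1 pool. The effect in these fits was 0.29 without the younger control, 1.33 without 2 weeks of smoke, 1.55 without the older control and 0.50 without 4 weeks of smoke. In them the lone pool of an arm is assumed to vary like the other arm. Gstp1 was at 12.64, 13.11, 13.55 and 13.72, which is the same order of pools as Gstp3. Its smoke differences were 0.47 and 0.17, below the 0.91 between the control pools, and its effect of 0.32 ± 0.116 did not pass (limma, adjusted p = 0.351). Without the 2-week control pool, again without the duration term, that effect was -0.13. In the RefSeq order 1 coding gene lies between Gstp1 and Gstp3, and how far their features share signal was not tested.

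**Figure D1:**
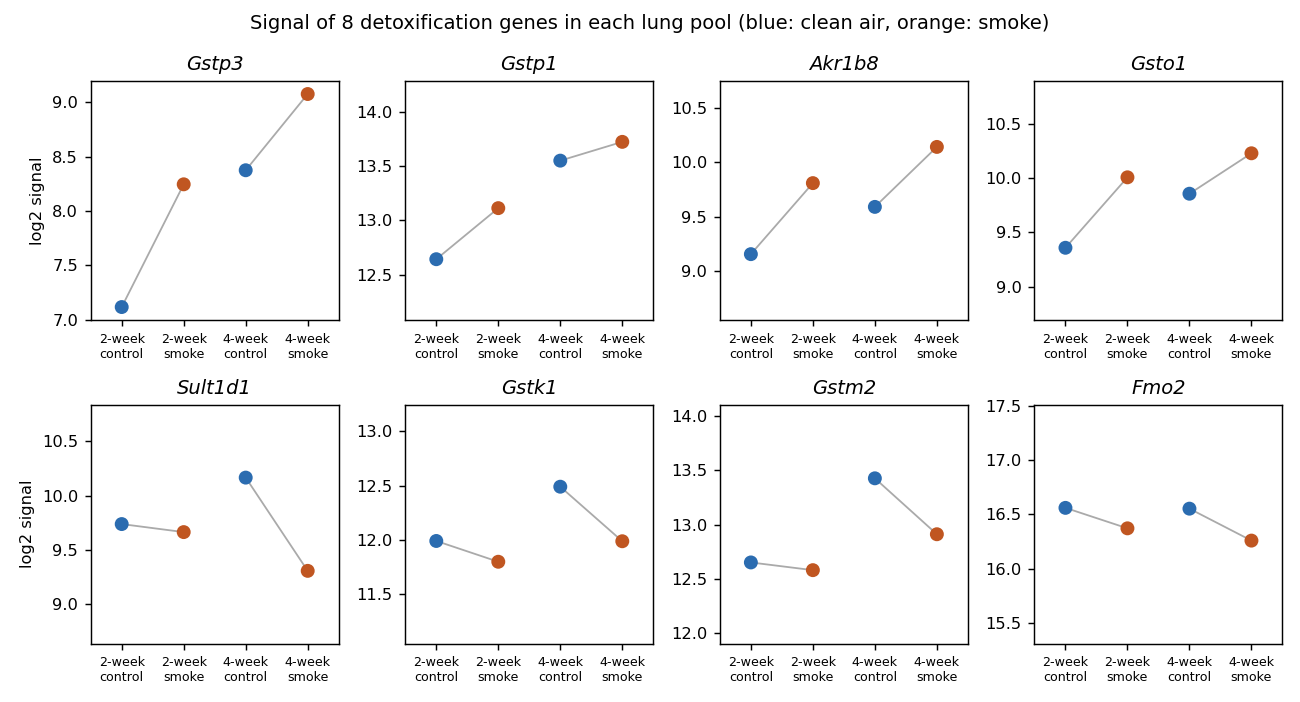
Log2 signal (vertical axis) of 8 genes in each of the 4 lung pools, blue for clean air and orange for smoke, 1 array per point, with a grey line joining pools of the same duration; every panel spans the same log2 range. Gstp3, Gstp1, Akr1b8 and Gsto1 are higher in the smoke pool at both durations and higher in the older control, whereas Sult1d1, Gstk1, Gstm2 and Fmo2 are lower in both smoke pools than in the control of their age.

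Aldo-keto reductases use NADPH to turn aldehydes and ketones into alcohols. Of 7 genes above the floor, 6 were higher with smoke at 2 weeks (5 after median centring, when Akr1c14 turned) and 5 at 4 weeks, with medians of 0.21 and 0.28. The shares over all genes were 51.3% and 46.5%. Akr1b8, which reduces lipid-derived aldehydes, was at 9.16, 9.81, 9.59 and 10.14. Both smoke pools lay above both control pools, as in 15.7% of all genes. The differences were 1.57-fold and 1.47-fold, alike at the 2 durations, and the effect of 0.60 ± 0.102 fell just short of the threshold (limma, adjusted p = 0.0541). It passed with a higher floor (adjusted p = 0.0174), with log2(value + 16) (0.0367), with a trended prior (0.0414) and when only protein-coding genes were fitted (0.0011). It did not pass after median centring (adjusted p = 0.145), after cyclic loess (0.0947) or without a floor (0.0826). Nor did it pass with the mean of features (0.0531) or without the duration term (0.615). Over all 13 alternatives its adjusted p ran from 0.0011 to 1.00 and its effect from 0.39 to 0.82.

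Akr1b10, the neighbouring gene of Akr1b8, was at 9.16, 9.53, 9.43 and 9.57. It was higher with smoke by 0.37 and 0.14, and both smoke pools lay above both controls. Akr1a1, the broad aldehyde reductase, was at 12.64, 12.84, 12.85 and 13.20, with differences of 0.20 and 0.36. In the Akr1c genes, which act on steroids and prostaglandins as well as on foreign ketones, Akr1c19 (6.36, 6.71, 6.29 and 6.57) and Akr1c13 (6.36, 6.57, 6.37 and 6.64) had both smoke pools above both controls, with little difference between the control pools. Akr1c14, the 3-alpha-hydroxysteroid dehydrogenase of the mouse, was at 10.76, 10.76, 10.86 and 10.75, and its 2-week difference of 0.00 changed sign after median centring (-0.03). Akr1e1 was lower with smoke by 0.07 and 0.23. None of these 6 genes passed in limma, with adjusted p from 0.281 for Akr1c19 to 0.925 for Akr1c14.

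The omega class forms thioethers poorly and is known for reducing dehydroascorbate and arsenic compounds. Gsto1 was at 9.36, 10.01, 9.85 and 10.23. Both smoke pools were above both control pools, by 1.57-fold at 2 weeks and 1.29-fold at 4 weeks against the control of the same age. The effect of 0.51 ± 0.114 did not pass (limma, adjusted p = 0.127) except when protein-coding genes alone were fitted (adjusted p = 0.00643). Without the 2-week control pool, in a fit without duration that sets both smoke pools against the older control, the effect was 0.26.

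Counted by size, 3 of the 45 genes were at least 1.5-fold higher with smoke at 2 weeks (Gstp3, Akr1b8 and Gsto1), against 1.82% of all genes, and 0 were as much lower, against 1.22%. At 4 weeks 1 was higher (Gstp3), against 2.53% of all genes, and 1 was lower (Sult1d1), against 1.5%. Gstp3 was the 1 gene past that fold the same way at both durations, where 1.13% of all genes were higher and 0.337% lower. With linear values of base e, 1 of the 45 would pass that fold at 2 weeks (Gstp3), 1 at 4 weeks (Sult1d1) and 0 at both. With smoke differences of any size, 16 of 45 were higher at both durations, against 27.2% of all genes, and 16 were lower at both, against 29.3%. Taken singly, 26 of 45 were higher with smoke at 2 weeks and 19 of 45 at 4 weeks, near the 51.3% and 46.5% of all genes. The medians of the 45 genes were 0.06 and -0.04, and those of all genes 0.01 and -0.02. Both smoke pools were above both control pools in 8 of the 45 and below them in 10, against 15.7% and 16.8% of all genes. Against the other control, 2 genes were past 1.5-fold in the 2-week smoke pool, Gstk1 and Gstm2, both below the older control, against 1.37% of all genes lower and 2.18% higher. In the 4-week smoke pool 5 were past that fold, all above the younger control (Akr1b8, Gsto1, Gstp1, Gstp3 and Gstt3), against 4.59% of all genes higher and 3.14% lower.

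**Figure D2:**
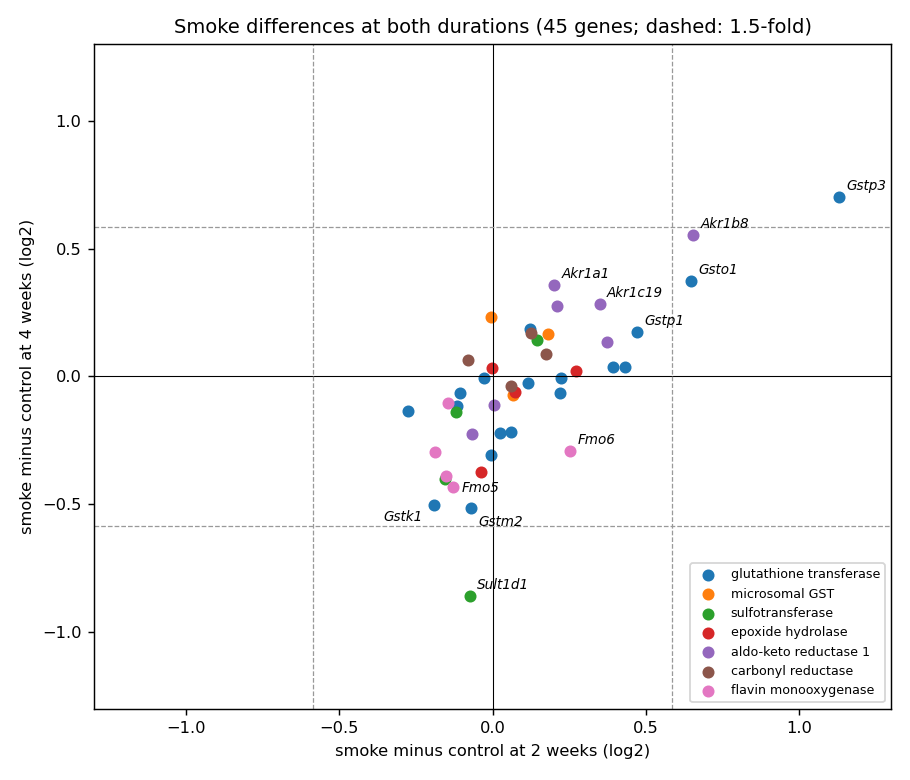
Smoke minus control in log2 units at 2 weeks (horizontal) and at 4 weeks (vertical) for the 45 genes above the floor, coloured by enzyme family, with dashed lines at 1.5-fold; each point is 1 gene and rests on 4 arrays. Gstp3, at 1.13 and 0.70, is the only point past 1.5-fold on both axes, Akr1b8 lies at 0.65 and 0.55, and Sult1d1 is at -0.07 and -0.86.

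Sulfotransferases move a sulfate group from the donor PAPS onto phenols, amines and steroids. Sult1d1, which sulfates catecholamines and eicosanoid metabolites, was at 9.74, 9.66, 10.16 and 9.31. The 2-week pools lay close together, while the 4-week smoke pool was the lowest and the 4-week control the highest of the 4. It was 1.05-fold lower with smoke at 2 weeks and 1.81-fold lower at 4 weeks, and the older control was 1.35-fold above the younger. The effect of -0.47 ± 0.185 did not pass (limma, adjusted p = 0.401). Its difference was 0.78 log2 units lower at 4 weeks than at 2 weeks (-0.78), the 1 of 45 genes in which the 2 durations differed by at least 1.5-fold in that direction, against 1.67% of all genes; in the other direction the counts were 0 of 45 and 3.49%. With base e it would be under 1.5-fold. This difference could not be tested. Sult1a1, the phenol sulfotransferase, was at 10.32, 10.17, 10.73 and 10.33, and was lower with smoke by 0.15 and 0.40. The other 2 sulfotransferases above the floor were Sult5a1, lower by 0.12 and 0.14, and Sult6b1, higher by 0.15 and 0.14. Below the floor, Sult2a2 was at 5.22, 5.17, 5.01 and 5.68, the 1 gene there with a difference of at least 1.5-fold.

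The mu class detoxifies epoxides and quinones, and its 7 genes follow each other without another coding gene between them in the RefSeq order. With smoke at 2 weeks, 3 were higher and 4 lower with a median of 0.00, though Gstm7 turned lower after median centring and Gstm6 higher after cyclic loess. At 4 weeks all 7 were lower, by 0.01 to 0.51 with a median of -0.22, but Gstm4 (-0.01) turned positive after median centring (0.01) and after cyclic loess (0.03). Of all genes, 46.5% were higher with smoke at 4 weeks. Gstm1 was at 15.78, 15.84, 16.35 and 16.13, and Gstm2 at 12.65, 12.58, 13.43 and 12.91. In both, the 4-week control was the highest pool. Their effects, -0.08 and -0.29, did not pass in limma (adjusted p = 0.894 and 0.484). Without the 4-week control pool they were 0.20 and 0.09. That fit has no duration term and sets both smoke pools against the younger control. The difference between the control pools therefore enters these effects.

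The kappa class transferase Gstk1, a mitochondrial and peroxisomal enzyme, was at 11.99, 11.80, 12.49 and 11.99. The 4-week control again stood above the other 3 pools, and the smoke differences were -0.19 and -0.50. The effect of -0.35 ± 0.118 did not pass (limma, adjusted p = 0.316). In the alpha class, which conjugates products of lipid peroxidation, Gsta4 was at 11.64, 11.76, 11.85 and 12.04 and Gsta3 at 11.08, 10.80, 11.18 and 11.05. Gsta4, the form with high activity towards 4-hydroxynonenal, was higher with smoke by 0.12 and 0.18, whereas Gsta3 was lower by 0.28 and 0.14 and Gsta2 by 0.11 and 0.06. The adjusted p of these 3 genes was 0.543 or above in limma.

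Theta class transferases act on halogenated and other small molecules. Gstt1 (9.54, 9.93, 10.08 and 10.12) and Gstt3 (8.06, 8.49, 8.66 and 8.70) shared a pattern in which the 2-week control was the lowest pool. Their smoke differences were 0.39 and 0.43 at 2 weeks but 0.03 and 0.04 at 4 weeks. Gstt2 was at 7.24, 7.46, 7.23 and 7.23. Gstz1, the zeta class enzyme of tyrosine breakdown, was at 9.13, 9.24, 9.40 and 9.38. The microsomal transferase Mgst1 was at 11.10, 11.28, 11.18 and 11.34, with both smoke pools above both control pools and differences of 0.18 and 0.17. Mgst2 and Mgst3 differed with smoke by 0.23 or less in size. None of these 7 genes passed in limma, with adjusted p from 0.583 to 0.998.

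Epoxide hydrolases open epoxides to diols. Ephx1, the microsomal form that acts on hydrocarbon epoxides, was at 13.68, 13.95, 14.18 and 14.20, higher with smoke by 0.27 at 2 weeks and 0.02 at 4 weeks and by 0.50 between the control pools. Ephx2, the soluble form that acts on fatty acid epoxides, was at 6.26, 6.33, 6.46 and 6.40. Ephx3 was lower with smoke by 0.37 at 4 weeks and by 0.04 at 2 weeks, and the differences of Ephx4 were 0.03 or less in size. Carbonyl reductases reduce quinones and ketones. Cbr2, a mitochondrial form long known from mouse lung, was at 18.32, 18.38, 18.57 and 18.53, with differences of 0.06 and -0.04. Cbr1 (8.02, 8.15, 8.30 and 8.47) was higher with smoke by 0.12 and 0.17, and Cbr4 by 0.17 and 0.09. Cbr3 was at 6.34, 6.26, 6.60 and 6.66. The adjusted p of these 8 genes was 0.630 or above in limma.

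Flavin-containing monooxygenases oxidise nitrogen and sulfur in foreign compounds, nicotine among them, and Fmo2 is the form typical of lung. Fmo2 was at 16.56, 16.37, 16.55 and 16.26 and Fmo1 at 15.12, 14.97, 15.01 and 14.62. Both smoke pools were below both control pools in these 2 genes and also in Fmo4 and Fmo5, as in 16.8% of all genes. Of the 5 genes above the floor, 4 were lower with smoke at 2 weeks and 5 at 4 weeks, with medians of -0.15 and -0.29. Of all genes, 51.3% were higher at 2 weeks and 46.5% at 4 weeks. Differences at 4 weeks were -0.39 for Fmo1, -0.29 for Fmo2, -0.10 for Fmo4 and -0.43 for Fmo5. Fmo6 was at 6.33, 6.58, 6.77 and 6.47, higher at 2 weeks and lower at 4 weeks. None passed in limma, with adjusted p of 0.420 for Fmo1, 0.431 for Fmo5 and 0.444 for Fmo2. The Fmo1, Fmo2, Fmo4 and Fmo6 genes are neighbours in the RefSeq order.

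**Figure D3:**
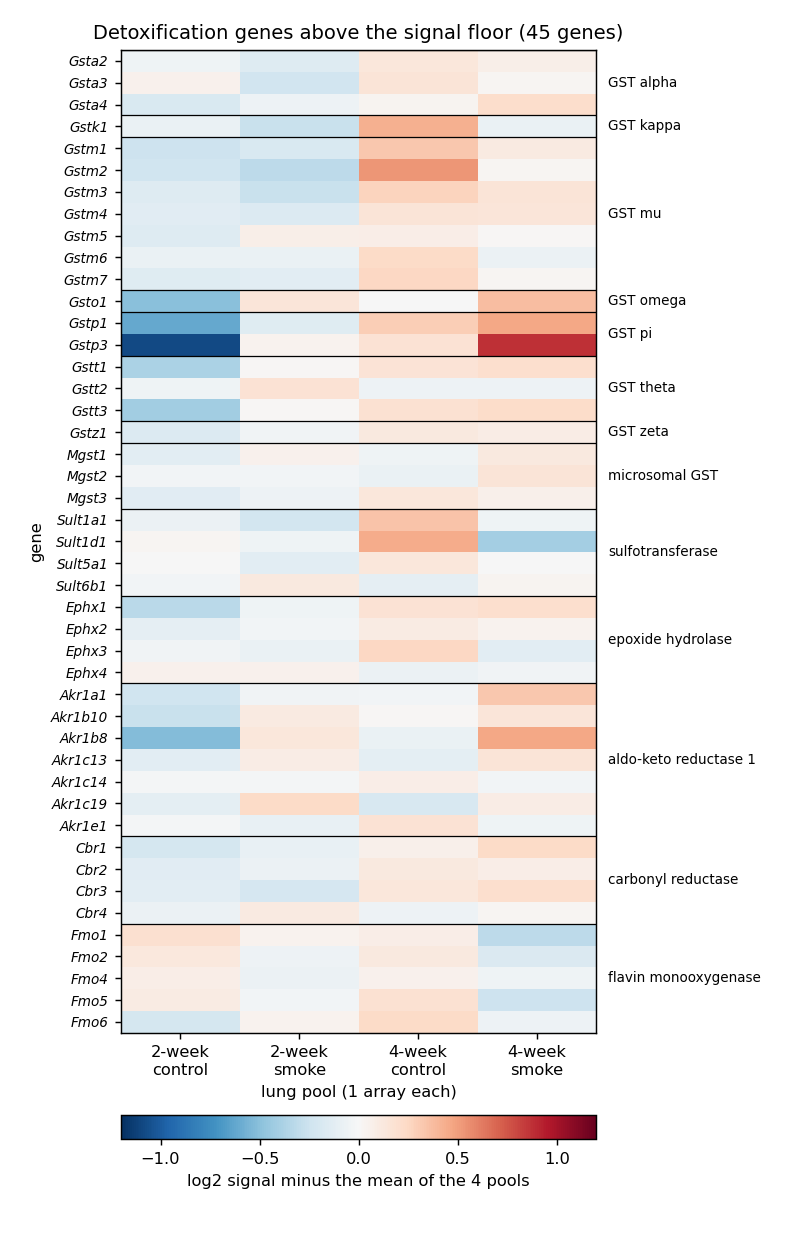
Log2 signal of each of the 45 genes above the floor in the 4 lung pools (columns, 1 array each), drawn as the distance from the gene's own mean over the 4 pools (blue below, red above), with rows grouped by enzyme class. The 2-week control column is low for Gstp3, Gstp1, Akr1b8, Gsto1, Gstt1 and Gstt3, the 4-week control column is high for Gstm2, Gstk1 and Sult1d1, and the 4-week smoke column is high for Gstp3 and Akr1b8.

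The control pools, which differed in age by 2 weeks and had no smoke, give the background of all these differences. Here 37 of 45 genes were higher at 4 weeks, against 52.1% of all genes, with a median of 0.26 against 0.01. The count was 35 of 45 after median centring and 37 of 45 after cyclic loess. At least 1.5-fold higher were 4 of 45 (Gstp3, Gstp1, Gstm2 and Gstt3), against 1.85% of all genes, and 0 were as much lower, against 2.25%. After median centring Gstt3 was no longer among them, and with base e Gstp3 and Gstp1 alone would be. All 7 mu class genes were higher, by 0.23 to 0.77. The pi class differences were 0.91 and 1.26, the omega and kappa class differences 0.50 and 0.50, and those of Gstt1 and Gstt3 0.55 and 0.61. The flavin-containing monooxygenases had a median of -0.01, with Fmo6 (0.44) apart from the rest. These differences share the 2-week control with the 2-week smoke difference and the 4-week control with the 4-week one, so a gene low in the 2-week control alone is higher in both, and no relation between them was computed.

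**Figure D4:**
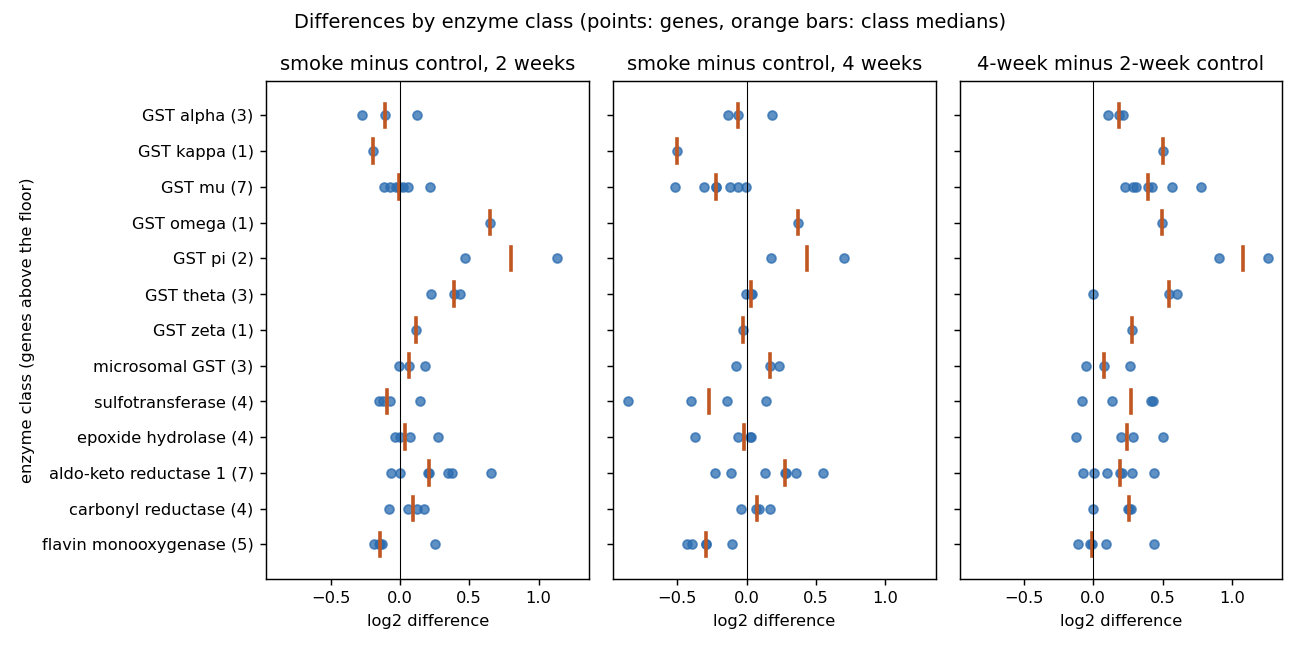
Log2 differences of the genes above the floor by enzyme class (points are genes, orange bars class medians, numbers of genes in parentheses) for smoke minus control at 2 weeks, at 4 weeks, and for the older minus the younger control. Class medians lie right of 0 between the controls except for the flavin-containing monooxygenases (-0.01), with pi class medians of 0.80, 0.44 and 1.08 in the 3 panels, while the flavin-containing monooxygenases lie mostly left of 0 with smoke.

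Partner genes of these enzymes were taken from 6 lists. Of 75 listed genes above the floor, 1 rose, 0 fell and 74 did not pass in limma, with 17 at an unadjusted p under 0.05, which 11.6% of all genes reached. The gene that rose, the cystine transporter Slc7a11, which feeds glutathione synthesis, was at 6.45, 7.60, 6.46 and 7.86. It was the 1 of 16 NRF2 and glutathione genes that passed (1.27 ± 0.113, adjusted p = 0.00682). None passed among 17 aldehyde dehydrogenases and oxidases, 17 alcohol dehydrogenases and other carbonyl reductases, 10 genes of cofactor supply, 8 conjugate transporters and 7 genes of methyl, acetyl and acyl conjugation. Papss2, which makes the sulfate donor PAPS, was at 12.70, 12.18, 13.09 and 12.38, lower with smoke by 0.52 and 0.70 (effect -0.61 ± 0.106, adjusted p = 0.0566). Gusb, the lysosomal glucuronidase that reverses glucuronidation, was at 8.61, 9.16, 8.92 and 9.56 (effect 0.59 ± 0.102, adjusted p = 0.0554). Dhrs9, a retinol and steroid dehydrogenase, was at 6.37, 6.25, 6.89 and 6.29, or 1.51-fold lower with smoke at 4 weeks. Aldh3a1, the class 3 aldehyde dehydrogenase, was at 8.15, 8.40, 8.76 and 8.63, and its older control was 1.53-fold above the younger.

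Whole lung mixes many cells, and more cells of a type cannot be told apart from more RNA per cell. Of 8 lung identity genes, all above the floor, 1 rose in limma, the surfactant protein gene Sftpd, and 0 fell. Of 8 alveolar macrophage markers above the floor, 5 rose and 1 fell with smoke in limma. Their summed linear signal was 13437, 34051, 14822 and 50733. Of 10 neutrophil markers, 8 were above the floor and none passed in limma. All 10 together summed to 3074, 3597, 5676 and 2909, highest in the 4-week control, as Sult1d1, Gstk1 and the mu class genes were. Of the 8 markers, Ltf (8.43, 9.96, 9.51 and 9.72) alone was highest in another pool, the 2-week smoke pool. Further detoxification genes were also highest in the 4-week control, among them Sult1a1, Akr1e1, Ephx3 and Cbr2. The share of all genes highest in that pool was not counted. Cardiac muscle markers (9 of 10) summed to 13632, 11176, 17894 and 10146, and markers of smooth muscle and fibroblasts (9 of 10, with Col3a1 rising) to 61323, 64352, 67818 and 54716. Both sums were highest in the 4-week control and lowest in the 4-week smoke pool, but single genes differed. Of the cardiac markers, Myh6, Myl7, Myl3 and Ryr2 were highest in the 2-week control and the others in the 4-week control. Nppa, at 9.15, 10.19, 11.39 and 9.77, was the only cardiac marker higher with smoke at 2 weeks. In the list of smooth muscle and fibroblasts the contractile genes and the collagens differed in direction, with 4-week differences of -0.53 for Acta2 and -0.68 for Myh11 but 0.53 for Col1a1 and 0.79 for Col3a1. Endothelial markers (9 of 10, with Cldn5 falling) summed to 316264, 278375, 306498 and 246085, lower in both smoke pools, as 4 Fmo genes were. That order of pools was found in 16.8% of all genes, and not in every endothelial marker. In Kdr and Tek the 2-week smoke pool (15.58 and 15.54) lay above the 4-week control (15.44 and 15.49). In Ramp2 the 4-week smoke pool (10.02) lay above the 2-week control (9.76). Club cell markers (7 of 10) had medians of 0.12 and 0.20 with smoke and 0.08 between the controls, ciliated cell markers (9 of 10) of 0.28, 0.01 and 0.10, alveolar type 2 markers (10 of 10) of 0.05, 0.11 and 0.05, and adipocyte markers (7 of 10) of 0.13, -0.06 and 0.22. The adipocyte markers Cidec (7.49, 7.56, 8.28 and 7.35) and Retn (7.27, 7.46, 7.72 and 7.06) were highest in the 4-week control and lowest in the 4-week smoke pool. The other adipocyte markers above the floor did not have that order. Within the club and ciliated lists, Scgb3a1, a secretoglobin of airway cells, was at 13.29, 15.25, 14.58 and 15.19 and Dynlrb2, a dynein light chain, at 8.57, 9.17, 9.22 and 9.34. Both were lowest in the younger control, as Gstp3, Gstp1, Gsto1 and Akr1b8 were. Many other detoxification genes had that order too, among them Gstt1, Gstt3, Ephx1, Gstm1, Akr1a1 and Cbr2. The share of all genes lowest in the younger control was not counted. Of the other club cell markers, Scgb1a1, Hp and Gabrp were also lowest there, whereas Scgb3a2, Cyp2f2 and Aldh1a1 were lowest in other pools. Of the ciliated cell markers, Tppp3 alone was lowest in another pool. None of these 4 lists held a gene that passed in limma. The part of these cell types in the differences of the detoxification genes was not tested.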

How the data were processed

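Lung RNA was measured on 4 arrays, 1 pool of 4 or 5 mice per group, with groups taken from the sample titles. Per the labels' protocols, the RNeasy Mini Kit gave the RNA and the GeneChip WT PLUS kit its biotin label. The authors deposited linear intensities and, per the submitters' processing notes, used RMA and Affymetrix Expression Console 1.4.1. Not given in the sources used here are genome build, filters and the base of the linear scale. Of 65956 features, 30604 had 1 gene symbol in the platform annotation, 2146 several and 33206 none listed. Symbols were updated by Entrez ID with RefSeq GRCm38.p6 (22818 matched; 0 of the 77 changed), and the feature with the highest mean was used per gene. The file held 0 columns of other samples.

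The tests had been planned for log2 values, so the log2 of each value was taken. Smoke minus control was computed per duration without a test, as 1 pool per group allows none. Smoke over both durations was tested with limma 3.58.1 (R 4.3.3), terms for smoke and duration, 1 residual and 5.38 prior degrees of freedom, on 18084 genes above the floor; p-values were Benjamini-Hochberg adjusted over all of them and called at 0.05. The error of this test joins the change of a gene's smoke difference between durations with a prior variance drawn from all tested genes. With 5.38 prior and 1 residual degrees of freedom, the prior weighs more. This error does not measure the spread between mice. The test was run on simulated data with known changes first. Alternatives were median centring, cyclic loess, no floor or one at the 60th percentile, log2(value + 16), the mean of features, no duration term, a trended prior, protein-coding genes alone, and leaving out each pool. The fits that left out a pool had no duration term.

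Genes with values in all pools were chosen by rule: those past 1.5-fold in any of the 3 comparisons, those passing limma, the 12 with the highest mean and the highest-mean gene of each family; partner genes were named if they passed or were past 1.5-fold. Others were added after their values were seen. The genes and lists were chosen with earlier results of these data known. Promoter sequences are from RefSeq, matched by symbol for 68 of 77 genes. Precision is limited by the number of arrays.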

Additional observations from a re-analysis of the deposited data

Results flagged for a closer look

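In 13 of the 45 genes above the floor the smoke difference had opposite signs at 2 and 4 weeks, or 28.9%, against 43.5% of all genes. With 1 pool per group this was not tested, and none of the 13 (0) changed between durations by 1.5-fold. The change, as the 4-week minus the 2-week difference in log2 units, was largest in size for Fmo6 (-0.55, from 0.25 to -0.29). It was -0.28 for Gstm1, -0.28 for Gstm5, -0.25 for Gstm7 and -0.23 for Gstt2. Mgst2 went the other way (0.24), as did Cbr3 (0.14) and Ephx4 (0.036). The remaining changes were -0.14 for Gstz1, -0.14 for Mgst3, -0.13 for Ephx2, -0.11 for Akr1c14 and -0.10 for Cbr2. The signs at 1 duration turned with the scaling for Akr1c14, Gstm7, Gstt2 and Gstz1.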

How the results depend on the processing

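The count past 1.5-fold at 2 weeks was 3 under the 6 alternatives of scaling, floor, pseudocount and feature. The count passing limma (1) was 0 after median centring, cyclic loess or without the duration term, with 11, 10 and 3 genes at an unadjusted p under 0.05. It was 2 (Gstp3 and Akr1b8) with the floor at the 60th percentile, log2(value + 16) or a trended prior, and 3 with protein-coding genes alone. Fits that leave out 1 pool also lack the duration term, so their calls cannot show whether a call rests on that pool. Over all genes, 265 passed, but 8 after median centring, 36 after cyclic loess, 331 with log2(value + 16), 379 with the higher floor, 884 with protein-coding genes, 311 with a trended prior, 224 without a floor and 0 without the duration term (1163 at an unadjusted p under 0.05). On leaving out the 2-week control, 2-week smoke, 4-week control or 4-week smoke pool, 6, 0, 34 and 0 passed, with 1024, 1469, 1449 and 597 at an unadjusted p under 0.05. Past 1.5-fold the same way at both durations were 2 genes after cyclic loess (Akr1b8 joined). The durations differed by 1.5-fold in 2 genes after cyclic loess (with Fmo6) and in 2 with no floor (with Sult2a2). Both smoke pools lay apart from both controls in 18 genes, or 34 with no floor, where 77 are counted. Against the 2-week control, chosen as an alternative after seeing the data, 5 genes were past 1.5-fold in the 4-week smoke pool. With linear values of base e, also added after seeing the data, the counts past 1.5-fold would be 1 at 2 weeks, 1 at 4 weeks, 2 between the controls, 0 at both durations and 0 for the difference between durations.

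Of 260 tested values of 20 genes under the alternatives, 237 kept direction and side of the threshold, 7 lost a call (all Gstp3), 5 gained one (Akr1b8 and Gsto1) and 11 changed sign, all on leaving out 1 pool and none past the threshold. Fits without 1 pool also lack the duration term, so the difference in duration enters their effects. In them, effects ran from -0.11 to 0.14 for Cbr2, -0.10 to 0.40 for Ephx1, -0.36 to 0.20 for Gstm1, -0.68 to 0.094 for Gstm2, -0.13 to 0.78 for Gstp1, -0.059 to 0.49 for Gstt1, -0.069 to 0.54 for Gstt3, -0.10 to 0.18 for Gstz1 and 0.29 to 1.55 for Gstp3. The duration term sets each smoke pool against the control of its duration. Beyond that, no block by replicate number could be fitted, since the labels carry none and each group is 1 pool.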
